A study of Mus musculus with 6 samples.

Results

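The genes described here are 9 transcription factors that build and keep the microglial lineage: Sall1, Maf, Mef2a, Mef2c, Spi1, Irf8, Runx1, Cebpa and Cebpb. They were taken as the rows of the deposited gene tables that carry these symbols, which gave 9 of 31053 genes, with 1 row for each symbol. Their unique molecular identifiers (UMIs, 1 for each captured RNA molecule) were counted in every cell and summed for each library and for each marker-defined class of cell. Levels are given as CPM, the UMIs of a gene for every 1000000 UMIs of the same class in the same library.

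The study asked how loss of Cd300a from myeloid cells affects the brain's immune cells in the first hours after a stroke. Live CD45+ cells were sorted from brains of C57BL/6 mice of 2 genotypes and profiled with 10x Genomics 3′ single-cell chemistry. Lyz2-cre mice carry floxed Cd300a alleles together with Cre at the Lyz2 locus, which removes Cd300a wherever Lyz2 is active in myeloid cells, and fl/fl mice carry the same floxed alleles without Cre. Brains came from naive mice, or 1 h or 3 h into reperfusion after 60 min of filament occlusion of the middle cerebral artery. Each of the 6 libraries pooled 3 brains, and each genotype and time had 1 library, so variation between animals was not measured. The tests therefore fit genotype and time as 2 additive terms over all 6 libraries, and the 2 genotypes stand in for replicates of a time. No sham-operated group is used here, so ischaemia, surgery and reperfusion time cannot be told apart, and no age or sex of the mice is stated.

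PU.1, the ETS-family protein encoded by Spi1, works with IRF8 and RUNX1 to set up the macrophage lineage in early progenitors, and C/EBPα takes part in the same step in myeloid cells. In mature microglia, enhancers opened by PU.1 are also bound by MEF2 and MAF factors, while the zinc-finger repressor SALL1, which among immune cells is made almost solely by microglia, keeps the microglial program in place. C/EBPβ is a leucine-zipper factor that inflammatory signals induce and that drives cytokine and acute-phase genes.

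Of 50634 barcodes that passed the cell filter, 47077 remained after 3557 likely doublets were removed, and 37216 of them fell in 9 of 19 main clusters that were led by microglial markers and are called microglia-like. Class names rest on marker lists that hold none of the 9 factors, and none of the 9 was among the 2000 variable genes used for clustering. Library totals lay between 35479437 and 48478866 UMIs, with medians of 3902 to 5225 UMIs per cell. Pairs of libraries shared 12 to 30 barcodes. The targeted gene, Cd300a, stood at 137, 171 and 163 CPM in microglia-like cells of Lyz2-cre mice (naive, 1 h and 3 h), against 171, 212 and 206 CPM in those of fl/fl mice. In the same cells Lyz2, whose locus holds Cre, stood at 0.328, 0.623 and 0.645 CPM in Lyz2-cre mice, against 204, 219 and 192 CPM in fl/fl mice.

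The promoter windows of 3 of the factors are shown because the changes after reperfusion turned on these genes: Cebpb and Runx1, which rose, and Sall1, which fell. Sequences are RefSeq windows on GRCm38.p6, from 250 bases before to 50 bases after an annotated start, and 7 of the 9 factors matched, with 13 windows in all (Maf and Spi1 had no match). Cebpb lies at chr2:167688915-167690418 on the plus strand, and capitals mark the core TGACG of the cyclic AMP response element (CRE), on either strand, at offsets (of the first letter) -180, -53 and -7 from the start base. The Runx1 window belongs to the distal start of a gene at chr16:92601466-92826149 on the minus strand, and capitals mark the RUNX motif TGTGGTT, here on the opposite strand, at offsets 27 and 35. Runx1 has 1 more window, without a match. Sall1 lies at chr8:89027235-89044162 on the minus strand. Its window shown is the only one of 3 with a match to any motif searched and belongs to a start inside the gene, not to the outermost one, and capitals mark a CRE core at offset -105.
Cebpb, chr2:167688665-167688964, plus strand: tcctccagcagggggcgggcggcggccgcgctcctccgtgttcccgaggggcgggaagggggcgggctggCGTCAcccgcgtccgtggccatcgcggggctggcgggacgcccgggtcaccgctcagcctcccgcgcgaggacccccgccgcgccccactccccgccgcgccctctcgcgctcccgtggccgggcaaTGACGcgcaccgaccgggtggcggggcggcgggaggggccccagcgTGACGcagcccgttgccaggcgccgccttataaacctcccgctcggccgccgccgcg
Runx1, chr16:92826025-92826324, minus strand: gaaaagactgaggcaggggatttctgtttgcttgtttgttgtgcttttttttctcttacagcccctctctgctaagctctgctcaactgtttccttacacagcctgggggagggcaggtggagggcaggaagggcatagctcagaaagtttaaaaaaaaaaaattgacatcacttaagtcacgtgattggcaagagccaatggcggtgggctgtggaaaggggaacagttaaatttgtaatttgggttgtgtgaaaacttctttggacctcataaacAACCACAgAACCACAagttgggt
Sall1, chr8:89043463-89043762, minus strand: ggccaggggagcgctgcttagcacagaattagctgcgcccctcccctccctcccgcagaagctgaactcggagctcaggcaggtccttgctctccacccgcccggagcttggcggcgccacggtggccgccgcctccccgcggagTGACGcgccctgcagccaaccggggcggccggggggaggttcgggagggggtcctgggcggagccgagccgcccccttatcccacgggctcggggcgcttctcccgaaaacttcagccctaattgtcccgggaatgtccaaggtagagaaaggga
On both strands the CRE core occurs in 20.81% of 32851 RefSeq promoter windows of this length, and TGTGGTT in 5.27%. Among the other windows, 1 of Mef2a held the MEF2 motif (CTA and TAG, 4 bases apart), found in 3.69% of all windows, and 1 each of Mef2c and Irf8 held the MAF core TGCTGA, found in 19.48%. No window of the matched factors held the C/EBP motif TTGCNNAA (10.8% of all windows), the PU.1 motif GAGGAAGT (3.2%) or the IRF motif (GAAA repeated after 2 bases, 3.44%). A match is a string of letters and was not tested for binding.

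In microglia-like cells the 9 factors did not move as a block after reperfusion. Cebpb and Runx1 rose and Sall1 fell against naive at both times, and the other factors moved by at most 0.37 on the log2 scale in any comparison of times. At 1 h against naive, 3 of the 9 passed the threshold (edgeR quasi-likelihood test, adjusted p under 0.05 over all 12902 genes tested), 2 up and 1 down, where 26.9% of all genes tested passed it, 14.1% up and 12.7% down. At 3 h against naive 6 of 9 passed, 3 up and 3 down, against a background of 47.5% (24.4% up and 23.1% down). Between 1 h and 3 h 7 of 9 passed, 4 up and 3 down, against 46.8% (25.1% up and 21.8% down). The median size of the log2 fold change was 0.12 over the factors and 0.25 over all genes at 1 h, and 0.26 and 0.36 at 3 h. Counts of this kind changed when a library was left out, which leaves its time with 1 library and fewer residual degrees of freedom. Calls were then lost with a larger change in some cases and a smaller one in others. At 1 h against naive Runx1 was +0.55 without the naive Lyz2-cre library, and +0.49 with all 6. Sall1 was -0.27 without the naive fl/fl library, and -0.41 with all 6.

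**Figure D1:**
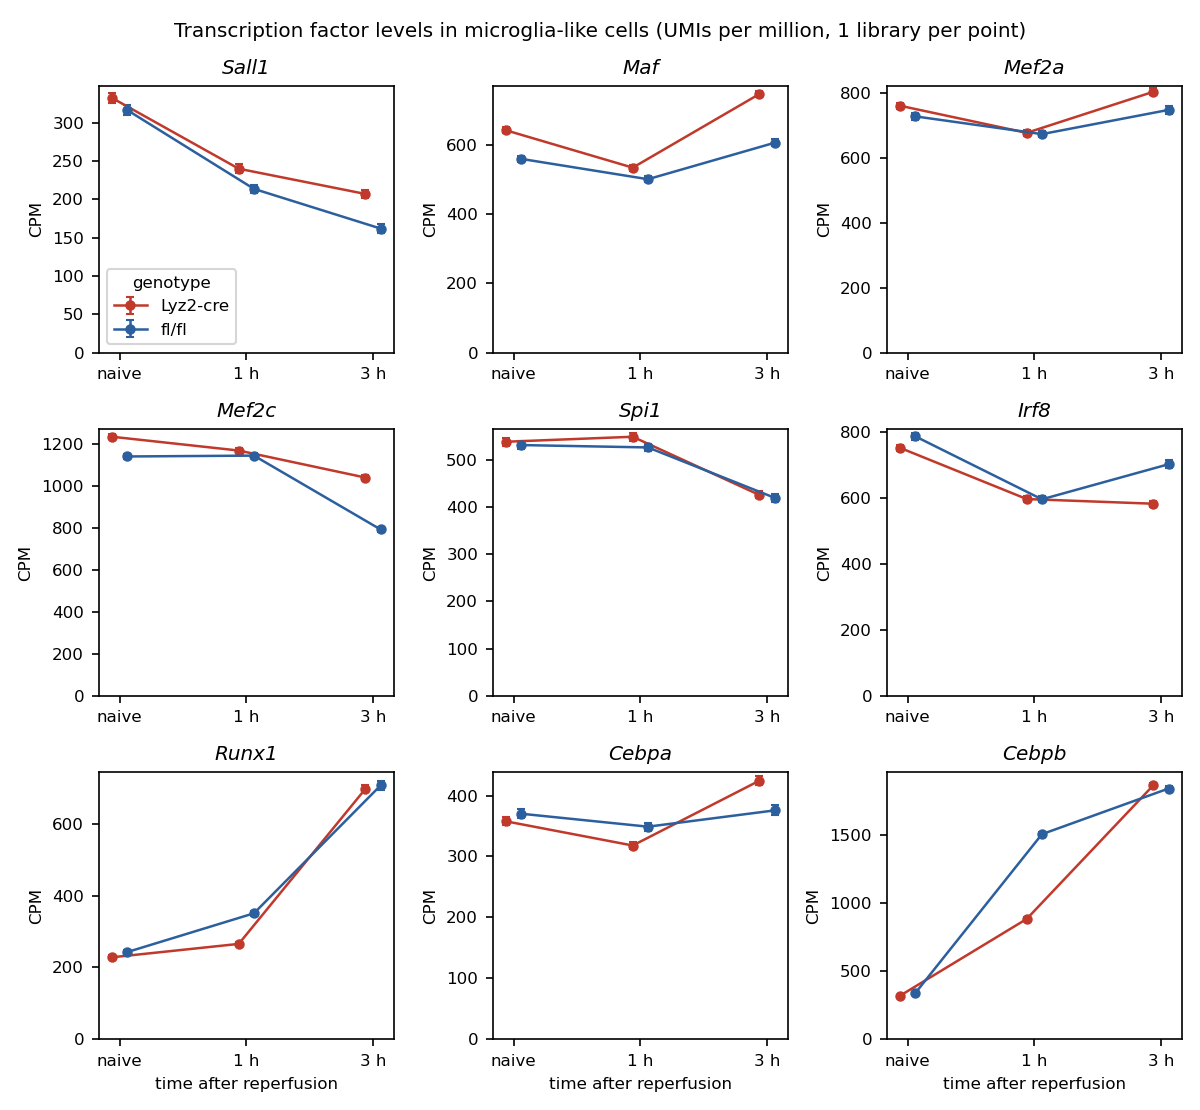
Level of each of the 9 factors in microglia-like cells (CPM, linear axis from 0) by time, with 1 point for each library, 1 line for each genotype, and bars for 95% Poisson intervals that cover counting error only. Cebpb and Runx1 are highest at 3 h in both genotypes and Sall1 is lowest there, while the other panels change by less.

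Sall1, the repressor that marks mature microglia, fell in both genotypes. It stood at 332, 240.0 and 207 CPM in Lyz2-cre microglia-like cells (naive, 1 h and 3 h) and at 316, 214 and 162 CPM in fl/fl cells. Each later library was below each earlier one, and the naive libraries did not overlap with those of either later time. The fitted log2 fold change was -0.41 ± 0.08 (SE) at 1 h against naive (edgeR adjusted p = 0.00771) and -0.74 ± 0.08 at 3 h against naive (edgeR adjusted p = 0.000157), which is 0.600 of the naive level. The 3 h call passed under every alternative tried, leaving out each library included. The 1 h call did not pass without the naive fl/fl library (-0.27, edgeR adjusted p = 0.141), without the 1 h fl/fl library (edgeR adjusted p = 0.0760) or without the 1 h Lyz2-cre library (edgeR adjusted p = 0.0542).

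The MAF and MEF2 factors, which occupy microglial enhancers beside PU.1, moved little. Maf had 643, 535 and 748 CPM in Lyz2-cre cells and 560.0, 501 and 607 CPM in fl/fl cells, so the 1 h library was the lowest of its genotype and the 3 h library the highest. Its rise at 3 h was small, +0.26 ± 0.08 against naive (edgeR adjusted p = 0.0278) and +0.35 ± 0.08 against 1 h (edgeR adjusted p = 0.00619). Scaling by library totals alone left the 3 h against naive value at +0.17 (edgeR adjusted p = 0.119), and the call was also lost without either naive library or without the 3 h Lyz2-cre library (edgeR adjusted p = 0.126 to 0.183), with no low-count filter (edgeR adjusted p = 0.0522) or with time alone (edgeR adjusted p = 0.0669). Mef2c, a calcium- and cytokine-responsive factor of microglia, had 1235, 1169 and 1041 CPM in Lyz2-cre cells and 1141, 1145 and 793 CPM in fl/fl cells. Both 3 h libraries lay below all others, more so in fl/fl mice. The log2 fold change of Mef2c at 3 h against naive was -0.30 ± 0.10 (edgeR adjusted p = 0.0281), and the call was lost without either naive library or without the 3 h fl/fl library (-0.18 in that case; edgeR adjusted p = 0.106 to 0.258). It was also lost with cells thinned to 2000 UMIs (edgeR adjusted p = 0.0510) and with time alone in the model (edgeR adjusted p = 0.0564). Mef2a, its close relative, had 762, 678 and 805 CPM in Lyz2-cre cells and 729, 675 and 749 CPM in fl/fl cells, and passed the threshold at neither time.

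The lineage-setting factors moved little too, with Spi1 lower at 3 h and Irf8 short of the threshold. Spi1 had 538, 548 and 425 CPM in Lyz2-cre cells and 531, 526 and 419 CPM in fl/fl cells, so both 3 h libraries lay below the other 4. Its log2 fold change at 3 h was -0.25 ± 0.08 against naive (edgeR adjusted p = 0.0304) and -0.37 ± 0.08 against 1 h (edgeR adjusted p = 0.00499). The 3 h against naive call of Spi1 was lost without either naive library or without the 3 h Lyz2-cre library (edgeR adjusted p = 0.125 to 0.196). Irf8 had 752, 597 and 583 CPM in Lyz2-cre cells and 787, 596 and 702 CPM in fl/fl cells. Every later library was below both naive ones, yet no comparison over time passed, with -0.25 ± 0.10 at 1 h (edgeR adjusted p = 0.0942) and -0.17 ± 0.10 at 3 h (edgeR adjusted p = 0.181). With library totals alone as the scaling Irf8 passed at both times, at -0.37 and -0.26. That scaling moved the median of all genes by -0.13 at 1 h and -0.11 at 3 h.

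Cebpb, which drives inflammatory genes, changed most of the 9. It stood at 319, 885 and 1869 CPM in Lyz2-cre microglia-like cells and at 338, 1508 and 1845 CPM in fl/fl cells. The genotypes were close in naive mice and at 3 h, and the fl/fl library was higher at 1 h. The fitted rise was 3.84-fold at 1 h against naive (log2 +1.94 ± 0.18, edgeR adjusted p = 0.00154) and 6.01-fold at 3 h (log2 +2.59 ± 0.19, edgeR adjusted p = 0.000217), and both calls passed under every alternative tried. Its second rise, at 3 h against 1 h, was less firm (log2 +0.65 ± 0.18, edgeR adjusted p = 0.0279): it was 0.32 without the 1 h Lyz2-cre library and 0.98 without the 1 h fl/fl library. The call was lost with library totals alone, with no low-count filter or with time alone in the model (edgeR adjusted p = 0.0874 to 0.118). Runx1, the core-binding factor of blood-cell development, had 228, 265 and 697 CPM in Lyz2-cre cells and 243, 351 and 707 CPM in fl/fl cells. Most of its rise came between 1 h and 3 h. Its log2 fold change was +0.49 ± 0.09 at 1 h (edgeR adjusted p = 0.00521), a call lost without either naive library or without the 1 h fl/fl library (edgeR adjusted p = 0.0580 to 0.0827), and +1.67 ± 0.09 at 3 h, or 3.17-fold (edgeR adjusted p = 2.42e-06), a call that passed under every alternative. Cebpa, the family member of resting myeloid cells, had 358, 318 and 424 CPM in Lyz2-cre cells and 370.1, 349 and 376 CPM in fl/fl cells. It did not pass against naive at either time (+0.22 ± 0.09 at 3 h, edgeR adjusted p = 0.0534) and passed against 1 h (+0.24 ± 0.09, edgeR adjusted p = 0.0433), a call lost under 10 of its alternatives (+0.13 without the 3 h Lyz2-cre library).

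In 6 cases a factor overlaps another counted gene in the annotation. The counting of strand is not given in the sources used here, and whether reads of the partners entered the counts was not tested. On the opposite strand, Tmem189 overlaps Cebpb, Gm45091 overlaps Cebpa, Lysmd4 overlaps Mef2a, Gm15655 overlaps Maf and Gm26626 overlaps Runx1. Gm20388 overlaps Irf8 on the same strand, where strand cannot separate them.

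**Figure D2:**
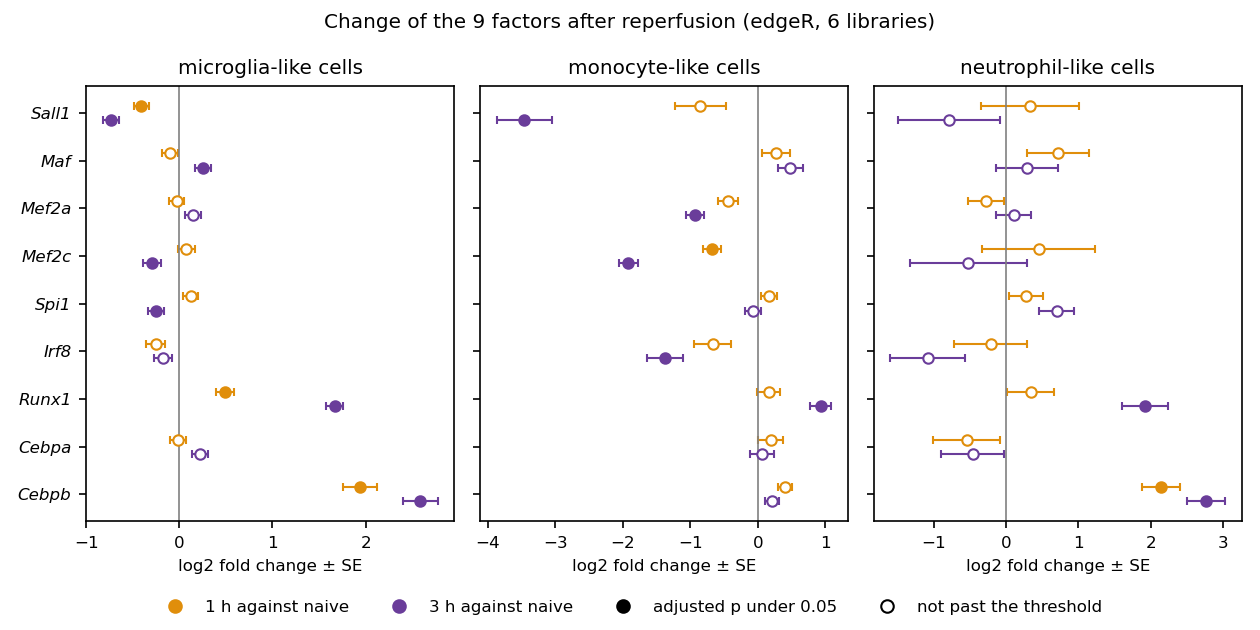
Log2 fold changes with standard errors for the 9 factors at 1 h and 3 h against naive in microglia-like, monocyte-like and neutrophil-like cells, from edgeR fits over all genes, filled where the adjusted p was under 0.05. Cebpb and Runx1 lie to the positive side in microglia-like and neutrophil-like cells, and Mef2c, Mef2a, Irf8 and Sall1 lie far to the negative side in monocyte-like cells at 3 h.

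None of the 9 factors passed the threshold between the genotypes in microglia-like cells. Cre at Lyz2 and the deletion of Cd300a came together and cannot be told apart. For Lyz2-cre against fl/fl, 0 of 9 passed in edgeR, where 0.411% of genes tested did. An unadjusted edgeR p under 0.05 was found for 1 of the 9, Runx1 (-0.22 ± 0.08, edgeR adjusted p = 0.350), and for 1311 of all 12902 genes tested. Cebpb had the widest gap, at -0.33 ± 0.14 (edgeR adjusted p = 0.509). In the 3 pairs of libraries Cebpb stood at 319 against 338 CPM in naive mice, 885 against 1508 CPM at 1 h, and 1869 against 1845 CPM at 3 h, so the gap came from the 1 h pair. With either of the 3 h libraries left out Cebpb was at -0.46. Both of these fits take the genotype term from the naive and 1 h libraries alone, so they are in effect the same estimate. Sall1 (+0.14 ± 0.07), Maf (+0.14 ± 0.07) and Irf8 (-0.17 ± 0.08) did not pass (edgeR adjusted p = 0.507 to 0.535).

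The share of microglia-like cells with at least 1 UMI, after each cell was thinned to 2000 UMIs, showed how widely these changes were spread. Sall1 UMIs were found in 48.2%, 38.1% and 30.9% of Lyz2-cre cells (naive, 1 h and 3 h) and in 46.1%, 34.0% and 26.3% of fl/fl cells. Without thinning the shares of Sall1 were 78.6%, 58.6% and 47.8%, and 74.8%, 55.5% and 41.2%. T-cell-like cells, which should lack Sall1, had it in 0 of 65 to 385 thinned cells a library, which allows a share of up to 5.52% in the smallest of these samples (exact 95% limit). Runx1 was found in 34.7%, 38.1% and 62.0% of Lyz2-cre cells and in 36.2%, 44.6% and 63.1% of fl/fl cells. Cebpb was found in 44.9%, 65.0% and 75.9% of Lyz2-cre cells and in 45.2%, 74.9% and 78.1% of fl/fl cells. At 3 h against naive the 95% binomial intervals were apart in both genotypes for 8 factors. The share was higher for Runx1 and Cebpb and lower for Sall1, Mef2c, Spi1, Irf8, Maf and Mef2a. These intervals are narrow, with 4397 to 6717 thinned cells in each naive or 3 h library. Shares of other genes were not set beside these, so whether such a count is unusual was not tested. The Maf and Mef2a shares went against their CPM and are not read as an order. Intervals cover counting error only, and thinning left out 118 to 615 cells a library.

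At 3 h the levels of the factors differed between clusters of microglia-like cells. Naive cells lay mostly in clusters 1 and 2, cells at 1 h mostly in clusters 5 and 3, and cells at 3 h in clusters 14 (30.2% of Lyz2-cre cells and 38.7% of fl/fl cells), 15, 0 and 6. Cluster 14 was led by Rcan1, Gdf15, Il1a and Ccl3, cluster 6 by Slc1a3 and C1q genes, cluster 15 by the heat-shock genes Hspa1a and Hspb1, and cluster 0 by P2ry12, Plxdc2 and Tanc2. The factors took no part in the clustering, but the clusters come from the same cells, so these levels are a description. In clusters 14, 6, 15 and 0 in that order, Cebpb stood at 3260, 1251, 1361 and 411 CPM in the Lyz2-cre library and at 2761, 1240, 1417 and 314 CPM in the fl/fl library. Sall1 ran the other way, at 62.9, 145, 319 and 416 CPM in Lyz2-cre cells and 44.8, 155, 243 and 405 CPM in fl/fl cells. The cells of cluster 0 thus held more Sall1 than the naive libraries as a whole, and cluster 14 held the least. Runx1 followed Cebpb, with 1041, 686, 444 and 333 CPM in Lyz2-cre cells and 926, 768, 484 and 296 CPM in fl/fl cells. Mef2c followed Sall1, with 696, 1017, 1237 and 1508 CPM in Lyz2-cre cells and 468, 919, 1030 and 1302 CPM in fl/fl cells. Maf was low in cluster 14 alone, at 238 CPM in Lyz2-cre cells and 304 CPM in fl/fl cells, with 814 to 1192 CPM in the other 3 clusters. Cebpa was high in cluster 15, at 735 CPM in Lyz2-cre cells and 619 CPM in fl/fl cells, with 240.3 to 369 CPM in the others. Spi1 kept within 330 to 455 CPM across the 4 clusters of both libraries, and Irf8 followed no common order, with 623, 414, 629 and 621 CPM in Lyz2-cre cells and 846, 589, 561 and 564 CPM in fl/fl cells. Median depth also differed, with 4576 UMIs in Lyz2-cre and 5132 UMIs in fl/fl cells of cluster 14, and 3004 and 3300 UMIs in cluster 0. Malat1, a nuclear RNA, stood at 35728, 35988, 46220 and 45875 CPM in Lyz2-cre and 35274, 38373, 45908 and 44075 CPM in fl/fl cells of clusters 14, 6, 15 and 0. The part of depth and of Malat1 in these levels was not tested. Cluster 14 was present in the fl/fl library at 1 h with 336 cells, where Cebpb stood at 4150 CPM, Runx1 at 934 CPM, Maf at 120.1 CPM and Sall1 at 80.7 CPM.

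**Figure D3:**
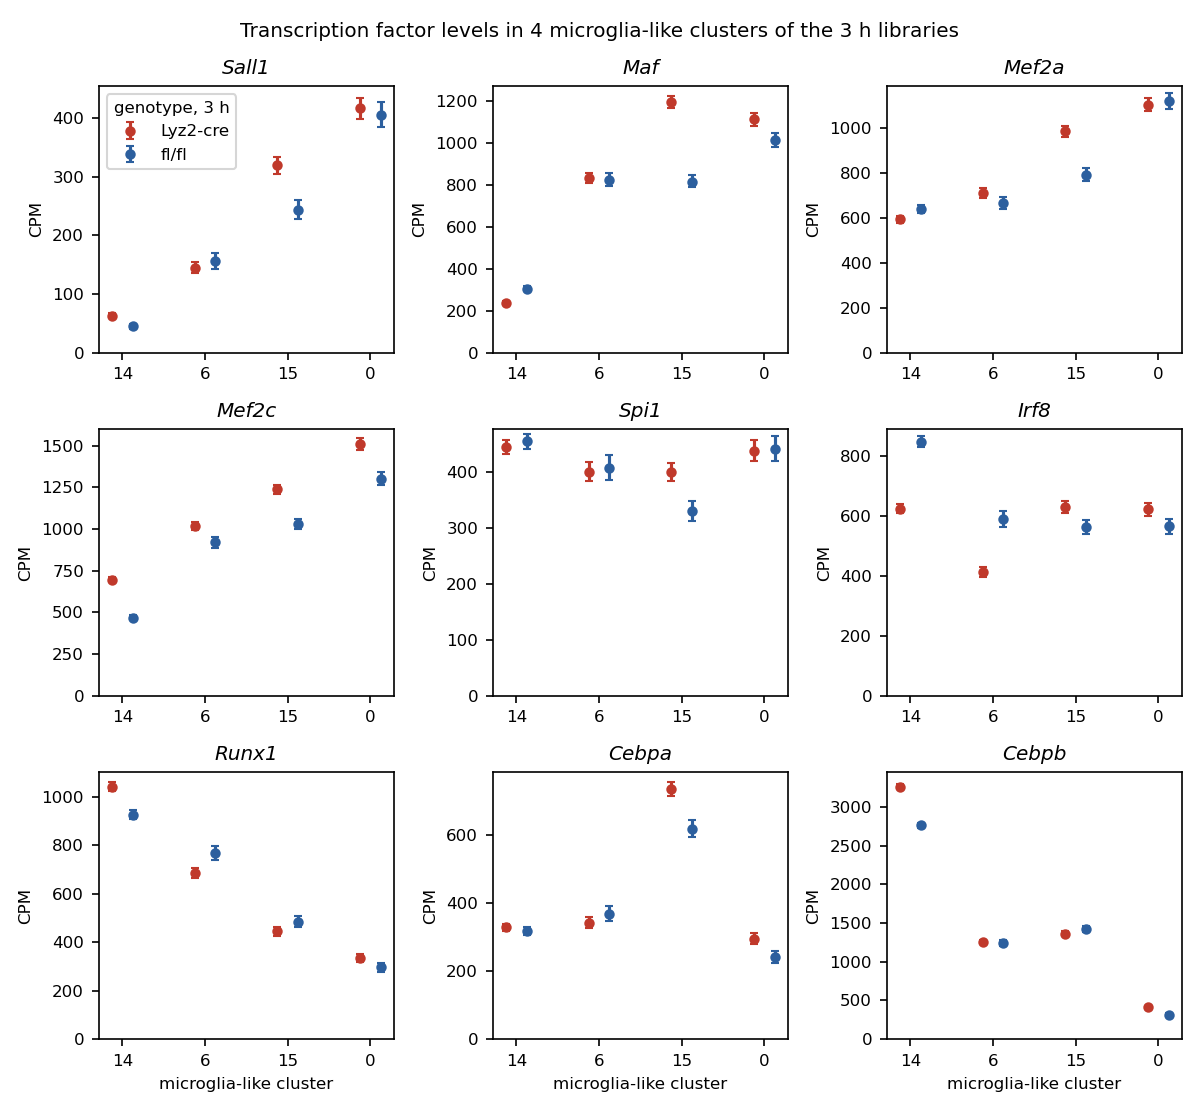
Level of the 9 factors (CPM) in clusters 14, 6, 15 and 0 of the 2 libraries taken at 3 h, with 95% Poisson intervals for counting error. Cebpb and Runx1 fall and Sall1 and Mef2c climb across the 4 clusters in that order in both genotypes, apart from Cebpb between clusters 6 and 15.

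Cell by cell, Sall1 was found less often in cells with more Cebpb UMIs at 3 h, less steeply so at 1 h. Cells thinned to 2000 UMIs were divided by their Cebpb UMIs into those with 0, with 1 or 2, and with 3 or more. At 3 h, Sall1 was found in 48.5%, 37.0% and 19.7% of Lyz2-cre cells in those 3 classes and in 41.3%, 34.3% and 15.7% of fl/fl cells. At 1 h the shares were 38.4%, 38.5% and 32.1% in Lyz2-cre cells and 39.4%, 36.4% and 28.2% in fl/fl cells. In naive mice they were 47.0%, 48.0% and 50.4% in Lyz2-cre cells and 46.5%, 45.9% and 46.4% in fl/fl cells. For cells without a Cebpb UMI, the 95% binomial intervals were 46.1% to 51.0% at 3 h against 45.3% to 48.8% in naive Lyz2-cre mice, which overlap, and 38.1% to 44.6% at 3 h against 44.7% to 48.3% in naive fl/fl mice, which do not. Runx1 was found in 48.8%, 58.3% and 71.1% of Lyz2-cre cells at 3 h and in 49.4%, 59.3% and 71.5% of fl/fl cells, against 33.7%, 34.6% and 32.9% and 34.8%, 33.3% and 37.4% of naive cells. At 1 h the Runx1 shares were 35.0%, 37.3% and 44.7% in Lyz2-cre and 34.7%, 42.7% and 52.4% in fl/fl cells. Maf fell across the 3 classes at 3 h, with 78.7%, 72.9% and 47.0% in Lyz2-cre and 74.5%, 66.6% and 46.2% in fl/fl cells. Already at 1 h Maf fell, with 66.7%, 58.6% and 44.7% in Lyz2-cre and 68.5%, 60.1% and 43.5% in fl/fl cells. Mef2c fell at 3 h, with 87.7%, 84.8% and 71.1% in Lyz2-cre and 84.8%, 75.7% and 59.8% in fl/fl cells, and was nearly even at 1 h, between 85.6% and 88.1%. Mef2a also fell at 3 h, with 81.7%, 77.8% and 69.8% in Lyz2-cre and 79.7%, 70.5% and 67.8% in fl/fl cells. At 3 h Spi1 was nearly even, between 52.2% and 56.8%, as was Irf8, between 59.1% and 65.4%. At 1 h Irf8 fell, with 70.0%, 68.1% and 60.7% in Lyz2-cre and 70.3%, 68.2% and 62.3% in fl/fl cells. Cebpa rose at 1 h, with 37.6%, 42.4% and 47.3% in Lyz2-cre and 38.8%, 42.5% and 51.7% in fl/fl cells. Its shares at 3 h were 43.2%, 41.8% and 44.6% in Lyz2-cre and 39.9%, 42.8% and 45.9% in fl/fl cells. Cells with 3 or more Cebpb UMIs made up 4.40%, 25.9% and 47.3% of Lyz2-cre and 5.35%, 43.2% and 47.9% of fl/fl cells at naive, 1 h and 3 h. Cells of 1 library are not replicates, so these shares carry no test.

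**Figure D4:**
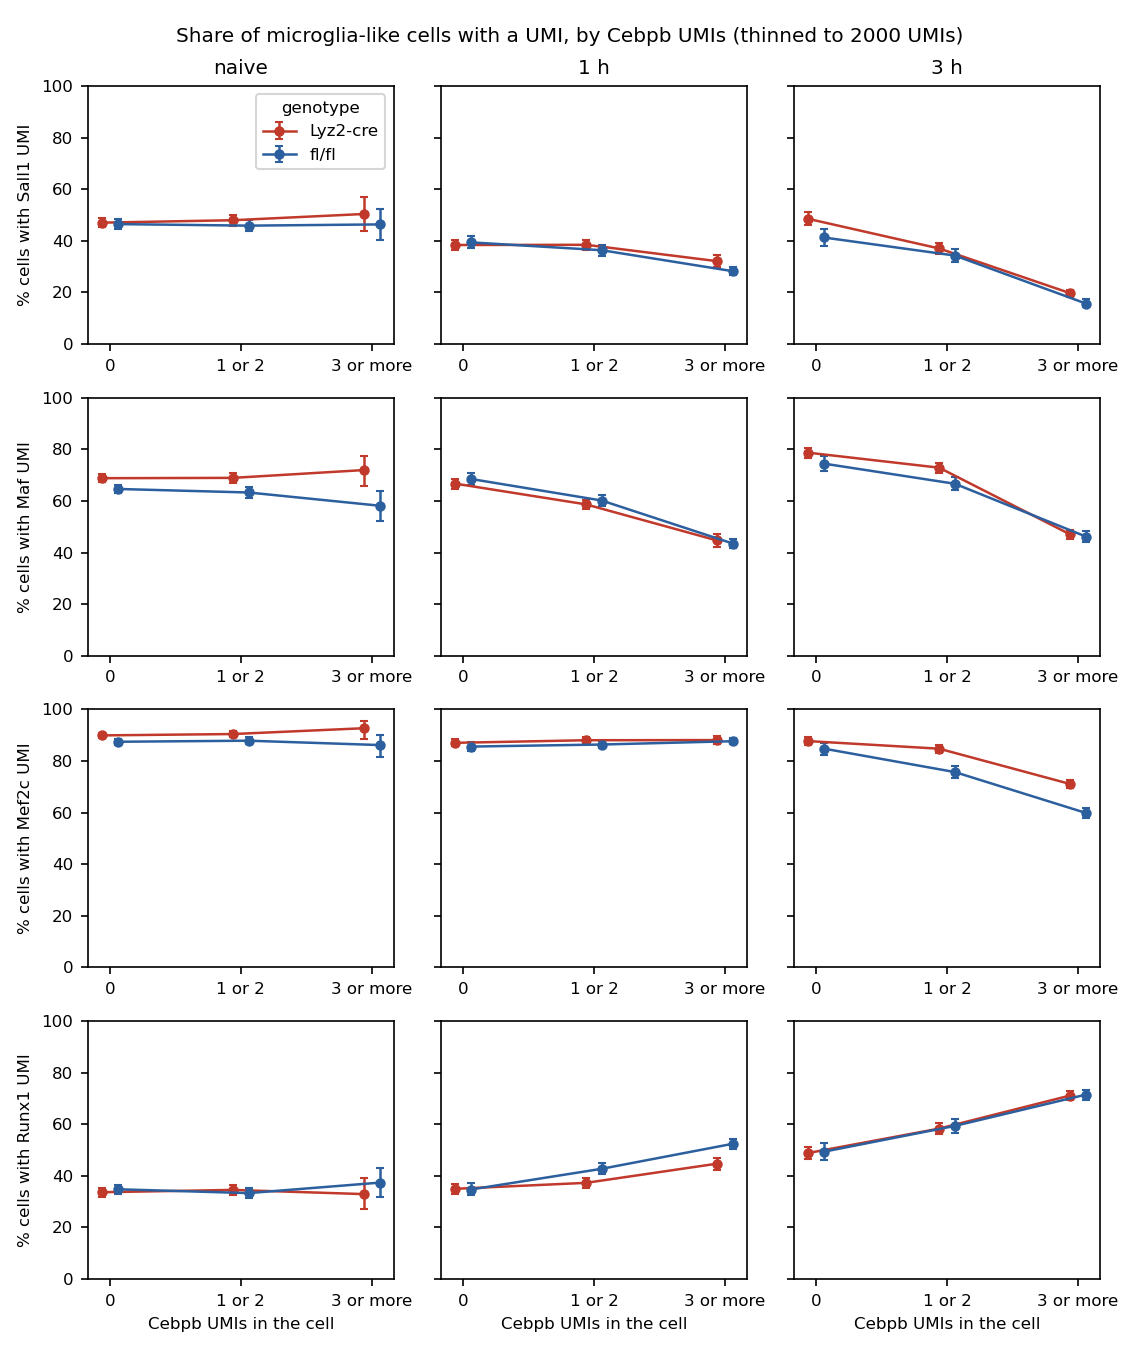
Percent of microglia-like cells with a UMI of Sall1, Maf, Mef2c or Runx1, by the number of Cebpb UMIs in the same cell (0, 1 or 2, 3 or more) after thinning to 2000 UMIs, for each time and genotype, with 95% binomial intervals. Lines are nearly flat in naive cells and steep at 3 h, downward for Sall1, Maf and Mef2c and upward for Runx1. At 1 h the lines of Sall1, Maf and Runx1 slope the same way and those of Mef2c are nearly flat.

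Genes around the factors were read from 7 lists, described by their counts beside the shares of all genes that rose or fell (14.1% and 12.7% at 1 h, 24.4% and 23.1% at 3 h). The lists were chosen with earlier results of these data known. Their counts, in every class, therefore describe the listed genes and do not test the activity of a factor. Of 12 microglial genes known to need Sall1, 10 of which also name the microglia-like class here, 7 rose and 2 fell at 1 h against naive (median log2 fold change 0.37), led by Fcrls (+0.73 ± 0.09), Sparc (+0.62), Olfml3 (+0.57) and the fractalkine receptor Cx3cr1 (-0.55 ± 0.09). By 3 h 0 rose and 9 fell, again against naive (median -0.47), led by the purinergic receptor P2ry12 (-0.92 ± 0.10), Gpr34 (-0.78), Cx3cr1 (-0.76) and Olfml3 (-0.74). P2ry12 stood at 3359, 4282 and 1858 CPM in Lyz2-cre cells and at 3259, 3646 and 1457 CPM in fl/fl cells, so it was highest at 1 h. The part of Sall1 in this course was not tested. Of 16 targets of PU.1 and IRF8, 11 rose and 0 fell at 1 h (median 0.40), led by Cd68 (+0.59), the receptor Csf1r (+0.56), the protease Ctss (+0.56) and Fcgr3 (+0.52). By 3 h 1 rose, Fcgr3 (+0.49), and 1 fell, Csf1r (-0.47 ± 0.09), which stood at 4057, 5475 and 2826 CPM in Lyz2-cre and 3879, 5338 and 2586 CPM in fl/fl cells.

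Of 14 targets of C/EBP factors, 6 rose and 0 fell at 1 h (median 0.89), where 14.1% of all genes rose and 12.7% fell. By 3 h 11 rose and 1 fell (median 1.73), where 24.4% of all genes rose and 23.1% fell. At 3 h they were led by the neutrophil chemokine Cxcl2 (+7.96 ± 0.14), the interleukin-1 antagonist Il1rn (+6.21 ± 0.36), the prostaglandin synthase Ptgs2 (+5.83 ± 0.16) and the acute-phase protein Saa3 (+4.73 ± 0.50). Saa3 was scarce, at 0.131, 0.242 and 2.51 CPM in Lyz2-cre and 0.0357, 0.264 and 1.93 CPM in fl/fl cells. The neutrophil marker S100a8 stood at 31.1, 73.1 and 37.4 CPM in these Lyz2-cre cells and 9.14, 9.27 and 45.8 CPM in fl/fl cells. The part of RNA from other cells was not tested. Cxcl2 stood at 0.557, 5.37 and 143 CPM in Lyz2-cre cells and 0.678, 7.19 and 147 CPM in fl/fl cells, and no later library overlapped a naive one. Cd14, the endotoxin co-receptor, stood at 434, 808 and 3141 CPM in Lyz2-cre cells and at 504, 1138 and 2472 CPM in fl/fl cells. Of 9 genes linked to MEF2 activity, 3 rose and 5 fell at 1 h, and 3 rose and 3 fell at 3 h, so the list went both ways. The nuclear receptors Nr4a3 (+6.34 ± 0.27) and Nr4a1 (+2.99 ± 0.09) and the calcineurin regulator Rcan1 (+4.72 ± 0.30) rose at 3 h, while Klf2 fell (-1.61 ± 0.29), and at 1 h the early-response gene Egr1 fell (-1.92 ± 0.10).

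Relatives of the factors were called about as often as all genes (26.9% at 1 h and 47.5% at 3 h), as were partners and inhibitors at 3 h. Of 26 relatives tested, 3 rose and 3 fell at 1 h, among them Ets2 (+2.32), Cebpd (+0.59), the stress factor Ddit3 (-0.46) and Sall3 (-0.41). By 3 h 9 rose and 4 fell, led by the small MAF protein Maff (+3.48 ± 0.14), Ets2 (+2.45 ± 0.24), Irf4 (+1.54 ± 0.22) and Cebpd (+1.18 ± 0.13). Maff, which lacks the activating region of Maf, stood at 4.56, 4.40 and 38.9 CPM in Lyz2-cre and 7.53, 10.2 and 95.1 CPM in fl/fl cells. Of 20 partners and inhibitors, 1 rose and 7 fell at 1 h, and 6 rose and 4 fell at 3 h. Jun, the AP-1 subunit that binds beside PU.1, stood at 8568, 2902 and 3768 CPM in Lyz2-cre and 9852, 2754 and 3174 CPM in fl/fl cells, with -1.59 ± 0.12 at 1 h against naive. Id2, an inhibitor of helix-loop-helix factors, and the repressor Bach1 rose at 3 h (+2.42 ± 0.10 and +1.94 ± 0.14). The others that led this list at 3 h, Gfi1b and Gata2, were below 0.5 CPM in every library. Of 10 upstream signals, 4 rose and 2 fell at each time. Csf1, the ligand of the receptor on which microglia depend, stood at 14.3, 55.7 and 201 CPM in Lyz2-cre and 19.8, 148 and 432 CPM in fl/fl cells (+4.21 ± 0.26 at 3 h), while its receptor Csf1r fell. Between genotypes 8 genes of these lists passed, all lower in Lyz2-cre: Nr4a3 (-1.28 ± 0.17), Maff (-1.18 ± 0.12), Ptgs2 (-0.91 ± 0.12), Ccl3 (-0.77 ± 0.09), Id2 (-0.68 ± 0.08), Nr4a1 (-0.58 ± 0.07), Irf1 (-0.56 ± 0.08) and Trib1 (-0.37 ± 0.06), with edgeR adjusted p = 0.00608 to 0.0445. Among all 12902 genes tested 53 passed between genotypes (0.411%), and only 5 of them were higher in Lyz2-cre. Lower was thus the common direction of all calls, not a trait of these lists.

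In monocyte-like cells Mef2c, Mef2a, Irf8 and Sall1 fell and Runx1 rose by 3 h, while Cebpb, Spi1, Cebpa and Maf did not pass the threshold. At 3 h against naive 5 of 9 passed in edgeR, 1 up and 4 down, where 27.8% of 8771 genes tested passed (14.5% up and 13.3% down), and the median size of the log2 fold change was 0.93 over the factors and 0.39 over all genes. Mef2c stood at 284, 162 and 60.2 CPM in Lyz2-cre and 301, 187 and 76.8 CPM in fl/fl cells, with no overlap between times (-1.92 ± 0.14 at 3 h, edgeR adjusted p = 7.35e-06). Mef2a stood at 362, 220 and 159 CPM in Lyz2-cre and 318, 261 and 155 CPM in fl/fl cells (-0.93 ± 0.14, edgeR adjusted p = 0.000661). Irf8, which steers progenitors to the monocyte fate, stood at 272, 235 and 97.4 CPM in Lyz2-cre and 360.3, 135 and 114 CPM in fl/fl cells (-1.38 ± 0.27, edgeR adjusted p = 0.00715). Without the naive fl/fl library (edgeR adjusted p = 0.0671) or the 3 h Lyz2-cre library (0.0582) the Irf8 call was lost. Runx1 stood at 113, 105 and 202 CPM in Lyz2-cre and 137, 167 and 214 CPM in fl/fl cells (+0.93 ± 0.16, edgeR adjusted p = 0.00153). Cebpb stood at 2522, 2892 and 2584 CPM in Lyz2-cre and 2717, 3742 and 2737 CPM in fl/fl cells, and passed at neither time (+0.21 ± 0.10 at 3 h, edgeR adjusted p = 0.155). Spi1, with 724 to 960 CPM, and Cebpa, with 64.4 to 106 CPM, did not pass either.

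Sall1 in monocyte-like cells stood at 9.91, 7.58 and 1.2 CPM in Lyz2-cre and 41.9, 17.0 and 2.44 CPM in fl/fl cells (-3.46 ± 0.41 at 3 h, edgeR adjusted p = 0.000150). The summed microglial markers in the same cells stood at 1403, 1255 and 575 CPM in Lyz2-cre and 2976, 2219 and 774 CPM in fl/fl cells, with 12 of 12 markers detected, and their part in the Sall1 value was not tested. Without doublet removal Sall1 was at -1.37 (edgeR adjusted p = 0.0649), and at -1.08 at 3 h against 1 h (edgeR adjusted p = 0.144). At 1 h against naive 1 of 9 passed, Mef2c (-0.68 ± 0.14, edgeR adjusted p = 0.0385), where 1.73% of genes did; the call was lost under 8 of its alternatives, among them leaving out the naive Lyz2-cre, the 1 h fl/fl or the 3 h Lyz2-cre library. From 1 h to 3 h 4 of 9 passed, where 19.7% of genes did: Mef2c (-1.24 ± 0.14), Mef2a (-0.49 ± 0.14), Sall1 (-2.61 ± 0.45) and Runx1 (+0.77 ± 0.16). The count was 2 without the 3 h Lyz2-cre library.

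The make-up of the monocyte-like class changed with time. Naive cells were mostly in cluster 12, led by Ace, Ear2 and Treml4 (genes of patrolling monocytes), and 3 h cells mostly in Lyz2-cre clusters led by Fn1, Vcan and Plac8 and in fl/fl cluster 13, led by Saa3 and Lyz2. Cluster 12 alone held 161, 171 and 132 Lyz2-cre and 61, 92 and 74 fl/fl cells, in a comparison chosen after seeing the data. At 3 h against naive 3 of 9 passed there, where 7.15% of 6473 genes tested did. Mef2c there stood at 383, 320 and 208 CPM in Lyz2-cre and 402, 252 and 224 CPM in fl/fl cells (-0.79, edgeR adjusted p = 0.00252). Irf8 (-0.94, edgeR adjusted p = 0.0185) and Runx1 (+0.86, edgeR adjusted p = 0.00654) passed as well. Mef2a did not (-0.15, edgeR adjusted p = 0.626): it stood at 497, 367 and 423 CPM in Lyz2-cre and 474, 379 and 412 CPM in fl/fl cells of cluster 12. At 3 h Mef2c was lower in the other clusters, at 45.5 CPM in cluster 11.4, 34.1 CPM in cluster 11.5 and 62.6 CPM in cluster 13. Between genotypes 0 of 9 passed in monocyte-like cells, where 0.399% of genes passed. An unadjusted edgeR p under 0.05 was found for 4 of 9 (Cebpb, Cebpa, Sall1 and Runx1) and for 495 of all 8771 genes tested.

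Of the lists in monocyte-like cells at 3 h against naive, C/EBP targets had 9 up and 1 down of 13, where 14.5% of all genes rose and 13.3% fell, led by Saa3 (+9.60 ± 0.36), Arg1 (+8.67), Cxcl2 (+4.36) and Cd14 (+3.80). Cebpb itself did not pass there, and its part in these changes was not tested. PU.1 and IRF8 targets had 3 up and 7 down of 16, among them C1qa (-2.10), Fcgr3 (+1.61), Csf1r (-1.41) and Fcgr1 (+1.03). Relatives had 6 up and 9 down of 25, with Irf4 (-2.96), Maff (+2.43), Ets1 (-2.35) and Sall3 (-2.14) in front. Upstream signals had 0 up and 6 down of 10, led by Tgfbr1 (-1.81), a receptor of transforming growth factor β. Genes that need Sall1 had 0 up and 10 down of 11, beside the fall of the microglial marker sum.

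In neutrophil-like cells Cebpb was the factor that changed most. It stood at 823, 2762 and 4807 CPM in Lyz2-cre and 855, 4215 and 5467 CPM in fl/fl cells, with no overlap between times. The log2 fold change was +2.14 ± 0.26 at 1 h (edgeR adjusted p = 0.00233), the only one of 9 to pass, where 0.953% of 7554 genes did, and +2.77 ± 0.26 at 3 h (edgeR adjusted p = 5.04e-05). The 1 h call was lost without either naive library (edgeR adjusted p = 0.0923 without the fl/fl one and 0.120 without the Lyz2-cre one). At 3 h against naive 2 of 9 passed, where 25.6% of genes did, and the second was Runx1, with 36.3, 30.8 and 163.5 CPM in Lyz2-cre and 46.1, 73.3 and 114 CPM in fl/fl cells (+1.92 ± 0.31, edgeR adjusted p = 0.00146). Spi1 stood at 675, 749 and 972 CPM in Lyz2-cre and 817, 890 and 1181 CPM in fl/fl cells, and its +0.70 ± 0.24 did not pass (edgeR adjusted p = 0.0510). From 1 h to 3 h 1 of 9 passed, Runx1 (+1.58 ± 0.30, edgeR adjusted p = 0.00504), where 20.7% of genes did, and it was at +1.04 without the 1 h Lyz2-cre library. The 3 h count was 6 without the 3 h Lyz2-cre library and 4 without the 1 h fl/fl library, and the count for 3 h against 1 h was 6 without the 3 h Lyz2-cre library. For genotype 0 of 9 passed in edgeR, where 0.0265% of genes did. An unadjusted edgeR p under 0.05 was found for 0 of 9 and for 375 of all 7554 genes tested. The genotype values of Irf8 (-0.90) and Mef2c (-0.64) were larger in size with a 3 h library left out. Irf8 was then at -1.54 and -1.52, and Mef2c at -1.53 and -1.51, without the fl/fl and the Lyz2-cre library. Both fits take the genotype term from the naive and 1 h libraries alone, so the values of each pair are in effect the same estimate. Naive and 1 h cells were mostly in cluster 9, led by Retnlg, S100a9, S100a8 and Mmp9, with others in clusters that had the granule genes Ltf, Ngp and Camp among their leading genes, while at 3 h 925 Lyz2-cre and 982 fl/fl cells lay in cluster 17, led by Ifitm1, Cxcr2 and Lrg1.

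The remaining factors were scarce in neutrophil-like cells. Irf8 stood at 14.6, 14.6 and 15.5 CPM in Lyz2-cre and 64.8, 44.9 and 11.1 CPM in fl/fl cells, and Mef2c at 22.3, 34.4 and 41.0 CPM in Lyz2-cre and 95.6, 108 and 17.1 CPM in fl/fl cells. Summed microglial markers there were 839, 1421 and 1490 CPM in Lyz2-cre and 2660, 3421 and 1375 CPM in fl/fl cells, so the fl/fl libraries with more Irf8 and Mef2c were those with more microglial RNA, and the part of that RNA was not tested. C/EBP targets had 8 up and 2 down of 12 at 3 h against naive, led by Nos2 (+7.19 ± 1.47) and Cd14 (+6.32 ± 0.54). Relatives had 9 up and 3 down of 24, among them Ets2 (+3.33), Mef2d (+1.57) and the granulocyte factor Cebpe (-3.20).

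The change at 3 h against naive was then set against that of the other classes within the same libraries. Between microglia-like and monocyte-like cells it differed for 5 of 9 factors (edgeR class-by-time term, library as a block), where 17.6% of genes differed. Cebpb rose more in microglia-like cells (difference +2.28 ± 0.16, edgeR adjusted p = 9.40e-18), as did Runx1 (+0.64 ± 0.18, 0.00538). Mef2c (+1.53 ± 0.19, edgeR adjusted p = 1.87e-08), Irf8 (+1.11 ± 0.20, 0.000217) and Mef2a (+0.99 ± 0.17, 1.06e-05) fell in the summed monocyte-like class by more than they changed in microglia-like cells. The make-up of that class changed with time, and its part in these differences was not tested. In the cluster led by patrolling-monocyte genes alone, Mef2c was at -0.79, Irf8 at -0.94 and Mef2a at -0.15 at 3 h against naive. The whole class had -1.92, -1.38 and -0.93 in the same order. The Runx1 difference was lost without the naive or the 3 h fl/fl library (edgeR adjusted p = 0.107 and 0.0761). Sall1 did not differ past the threshold (+2.61 ± 1.18, edgeR adjusted p = 0.301). Between microglia-like and neutrophil-like cells 1 of 9 differed, Spi1 (-1.12 ± 0.27, edgeR adjusted p = 0.000701), where 12.7% of genes differed, and the call was lost without the naive fl/fl, the naive Lyz2-cre or the 3 h fl/fl library (edgeR adjusted p = 0.0700 to 0.0864). Cebpb (-0.36 ± 0.27, edgeR adjusted p = 0.486) and Runx1 (-0.41 ± 0.30, edgeR adjusted p = 0.480) did not pass there.

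Across the sorted cells each factor had its own order of classes, given as the median over 6 libraries with the lowest and highest library. Sall1 was a microglial gene, at 227 CPM (162 to 332) in microglia-like cells, 39.0 CPM (0 to 211) in border-associated macrophage-like cells and 8.75 CPM (1.2 to 41.9) in monocyte-like cells, with 0.707 CPM in T-cell-like cells. In the macrophage-like class, of only 16 to 34 cells a library, Sall1 was at 6.50, 211 and 35.6 CPM in Lyz2-cre and 0, 85.1 and 42.4 CPM in fl/fl cells. The microglial marker sum there was 5075, 24654 and 6063 CPM in Lyz2-cre and 3994, 12908 and 4349 CPM in fl/fl cells, and its part was not tested. Maf was highest in the macrophage-like class, at 920 CPM (562 to 1750), and next in microglia-like cells, at 583 CPM (501 to 748), ranges that overlapped. Mef2a led in microglia-like cells at 739 CPM (675 to 805), above the macrophage-like class at 346 CPM (276 to 504) with no overlap. Mef2c stood at 1143 CPM (793 to 1235) in microglia-like cells, 833 CPM (233 to 1105) in macrophage-like cells and 720 CPM (521 to 950) in B-cell-like cells, where it serves B-cell development, and at 4.57 CPM (3.02 to 11.6) in T-cell-like cells.

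Spi1 was highest in monocyte-like cells, at 881 CPM (724 to 960), and neutrophil-like cells, at 854 CPM (675 to 1181), which overlapped, and stood above 528 CPM (419 to 548) in microglia-like cells and 2.64 CPM (1.71 to 6.31) in T-cell-like cells. Irf8 was highest in natural-killer-cell-like cells, at 709 CPM (431 to 950), and in microglia-like cells, at 650 CPM (583 to 787), ranges that overlapped, and lowest in neutrophil-like cells, at 15.1 CPM (11.1 to 64.8). Runx1 had its highest median in microglia-like cells, at 308 CPM (228 to 707), and its lowest in neutrophil-like cells, at 59.7 CPM (30.8 to 164). Cebpa stood at 364 CPM (318 to 424) in microglia-like cells and 71.0 CPM (64.4 to 106) in monocyte-like cells, with no overlap. Cebpb ran in the order neutrophil-like 3488 CPM (823 to 5467), monocyte-like 2727 CPM (2522 to 3742), macrophage-like 2284 CPM (422 to 4837), progenitor-like 1249.8 CPM (1031 to 2300; granulocyte-monocyte progenitor markers) and microglia-like 1196 CPM (319 to 1869). Of these, the monocyte-like range did not overlap with the progenitor-like or the microglia-like one, and all other ranges overlapped. The medians pool times that differ: in naive mice Cebpb stood at 2522 CPM in Lyz2-cre and 2717 CPM in fl/fl monocyte-like cells, above 823 CPM in Lyz2-cre and 855 CPM in fl/fl neutrophil-like cells. In macrophage-like cells Cebpb stood at 422, 2376 and 2192 CPM in Lyz2-cre and 472, 2978 and 4837 CPM in fl/fl cells, and Maf at 1729, 880 and 961 CPM in Lyz2-cre and 1750, 620 and 562 CPM in fl/fl cells, so both naive libraries were the lowest for Cebpb and the highest for Maf.

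**Figure D5:**
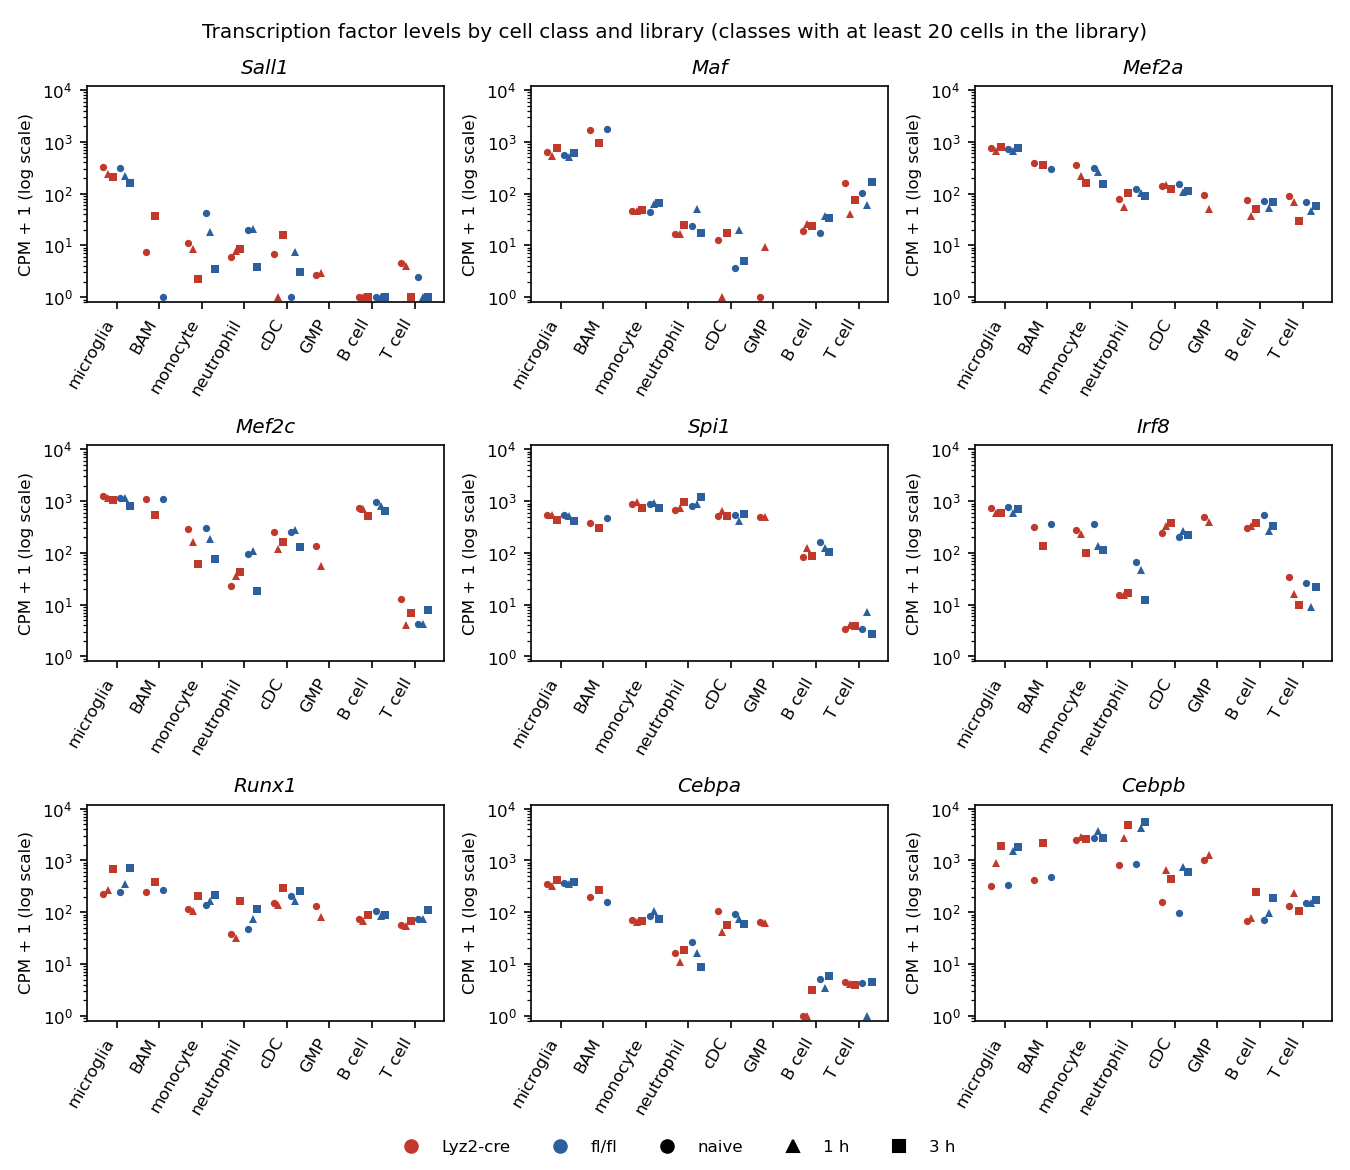
Level of the 9 factors (CPM + 1, log scale) in each marker-defined class, with 1 point for each library that held at least 20 cells of the class. Sall1 stands apart in microglia-like cells, Spi1 is high in all myeloid classes and near the floor in T-cell-like cells, and Cebpb is lowest in the lymphoid classes.

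The genes whose levels ran most like each factor were ranked over 27 class-by-library sums of 5 myeloid classes among 7828 genes, by Pearson's r of log2(CPM + 1). The sums share libraries and depth, so r is a description. Sall1 was nearest to Sparc (0.974), Mlxipl (0.959) and Lrrc3 (0.958), and Maf to the macrophage gene Stab1 (0.965), Rnase4 (0.942) and Ccl12 (0.941). Mef2a was nearest to Clcn4 (0.968), Mef2c to Aif1 (0.971), Irf8 to Tgs1 (0.969) and Cebpa to Aif1 (0.968). Spi1 (Pi16, 0.885), Runx1 (Fam133b, 0.921) and Cebpb (Tpd52, 0.842) had no neighbour as close. Among the factors, Mef2c ran with Cebpa (0.93) and Mef2a with Cebpa (0.92), and Spi1 ran against Cebpa (-0.69).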

How the data were processed

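The deposited files hold raw UMI counts per gene and cell, made by the authors with Cell Ranger 3.0.2 on mm10, per the submitters' processing notes; the handling of strand is not given in the sources used here. The 9 factors, the 7 gene lists and the marker lists were chosen with earlier results of these data known.

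A barcode was kept with 300 or more genes detected and no more than 10% of its UMIs from mitochondrial genes. Scrublet's own threshold called 433 doublets and was not used, and the highest-scoring cells of each library were removed instead, at 0.8% for every 1000 cells. Cells were clustered with scanpy 1.11.5 and leidenalg 0.10.2 (2000 variable genes without the 9 factors, 30 components, 15 neighbours, resolution 1), clusters were named from markers, and 919 cells stayed unnamed.

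UMIs were summed for each class and library. edgeR 4.0.16 in R 4.3.3 (TMM scaling, filterByExpr, robust quasi-likelihood test, genotype plus time, 2 residual degrees of freedom) was fitted over all genes, with Benjamini-Hochberg adjustment at 0.05 over all genes tested. SE is the log2 fold change over the root of F. Changes between classes used a class-by-time term with library as a block. The test was checked on simulated data. Levels have exact Poisson intervals and shares exact Clopper-Pearson intervals at 95%, which cover counting error only. All 9 factors passed the low-count filter in each class, and from each list the text names genes from the up to 4 called with the largest change. Alternatives were other scaling, filters and cells, DESeq2 1.42.0, and each library left out. Age and sex were not analysed here.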

Additional observations from a re-analysis of the deposited data

Results flagged for a closer look

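The change at 3 h against naive differed between classes for 6 pairs of factor and class, by a test of the difference within libraries. Microglia-like minus monocyte-like cells, the log2 difference was 2.28 for Cebpb, 0.99 for Mef2a, 1.11 for Irf8, 1.53 for Mef2c and 0.64 for Runx1. Microglia-like minus neutrophil-like cells, it was -1.12 for Spi1. The make-up of the monocyte-like and neutrophil-like classes changed with time, and its part in these differences was not tested.

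In neutrophil-like cells the plain log2 ratio of Mef2c CPM at 3 h over naive was 0.88 in Lyz2-cre and -2.49 in fl/fl cells, opposite in sign between the genotypes. This difference was not tested, since each genotype and time had 1 library. The microglial marker sum in these cells was 1490 CPM at 3 h against 839 CPM in naive Lyz2-cre mice, and 1375 CPM at 3 h against 2660 CPM in naive fl/fl mice, and its part was not tested.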

How the results depend on the processing

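Of 1715 values of a factor under an alternative, 423 kept a call and its sign, 74 lost the call, and 54 gained one. In microglia-like cells the calls of Cebpb at 1 h and 3 h and of Runx1 and Sall1 at 3 h, all against naive, passed under every alternative. A fit without 1 library has fewer residual degrees of freedom, so a call can be lost there without a smaller change. With each library left out in turn, the number of factors called in microglia-like cells was 1 to 4 at 1 h, 3 to 7 at 3 h against naive, 3 to 6 at 3 h against 1 h, and 0 to 1 for genotype. In monocyte-like cells it was 0 to 1, 4 to 5, 2 to 4 and 0 to 0, and in neutrophil-like cells 0 to 2, 2 to 6, 1 to 6 and 0 to 2, in the same order. For class by time it was 4 to 6 against monocyte-like and 0 to 1 against neutrophil-like cells. Counts also moved in monocyte-like cells at 1 h (3 without a low-count filter, 0 with DESeq2, 0 without doublet removal), at 3 h against naive (3 with cluster 12 alone), at 3 h against 1 h (2 without doublet removal) and for genotype (1 without a filter). In neutrophil-like cells they were 4 without a filter and 5 without doublet removal at 3 h against naive, and 2 with the stricter cell filter and 2 with thinned cells at 3 h against 1 h; the class-by-time count was 0 with the stricter cell filter. Among values called in either analysis, signs turned for Cebpa (0.90) and Irf8 (1.01) in neutrophil-like cells at 3 h against naive without doublet removal, and in cluster 12 alone at 3 h against 1 h for Mef2a (0.17) and Maf (-1.37). Signs also turned among values called in neither, such as Maf in monocyte-like cells at 3 h against naive (0.48, and -1.07 in cluster 12 alone). The cause was not tested. Over all genes, those called varied from 2774 to 6333 in microglia-like cells at 3 h (6124 in the main analysis) and from 1105 to 4905 at 1 h (3467). No paired analysis was possible because each group holds 1 library and the labels carry no replicate numbers.

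With 1 library of 3 pooled brains in each group, p-values for time and genotype set a fitted change against a residual spread. That spread is how far the genotypes depart from a common course over time, moderated over all genes. It does not measure variation between animals. Class-by-time p-values come from the separate model with library as a block. Monocyte-like and neutrophil-like classes held 108 to 1071 cells a library, which limits factors at a few CPM.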
